A study of Mus musculus with 2 samples.

Results

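Heat shock proteins and chaperones were followed in 2 pooled colon libraries from C57BL/6 wild-type mice. The adenoma pool (AOM+DSS) held total RNA of colon adenomas from mice treated with AOM and DSS: azoxymethane, which causes colon tumours in rodents, and dextran sodium sulfate, an agent that damages the gut lining. The control pool held total RNA of normal colon from mice given neither agent. RNA of 6 individuals was pooled per group and each pool gave 1 library, so the differences have no replicate check and carry no p-value. The genes were taken by symbol and type: mRNA genes named as members of the HSP70 and HSP110 (Hspa, Hsph), HSP90, small heat shock protein (Hspb), Hspd and Hspe, J-domain (Dnaja, Dnajb, Dnajc), CCT, BAG and heat shock factor families, with Tcp1 and Hyou1. There were 94 of them among 35529 listed genes, of which 22388 were mRNA genes.

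Chaperones bind unfolded or partly folded proteins and prevent their aggregation. HSP70 proteins do this in cycles of ATP hydrolysis, which J-domain proteins start and which nucleotide exchange factors of the HSP110 and BAG families complete. HSP90 acts later on client proteins such as kinases and steroid receptors, and the ring-shaped chaperonins enclose their clients: TRiC/CCT folds actin and tubulin in the cytosol, and Hspd1 with its lid Hspe1 works in mitochondria. Some of these genes are made at a steady level in every cell. Others are switched on by heat and other protein-damaging stress through heat shock factor 1 (Hsf1), which binds heat shock elements, arrays of inverted GAA units. Chaperones of the endoplasmic reticulum (ER) are instead controlled by the unfolded protein response through ER stress elements.

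The promoters below are shown because the stress-inducible HSP70 pair gave the largest log2 fold changes of the family, and because they show how the known control elements are laid out in genes that did and did not differ. Each line gives the 150 bases before the RefSeq start of the gene on GRCm38.p6, 5′ to 3′ on the gene's own strand. For the first 4, capitals mark heat shock element pairs, GAANNTTC or TTCNNGAA, both of which read the same on either strand and may overlap by sharing a GAA or TTC unit. For the last 2, capitals mark the ER stress element, CCAAT followed 9 bases later by CCACG, searched on both strands.
Hspa1a, chromosome 17, 34972157 to 34972306, minus strand: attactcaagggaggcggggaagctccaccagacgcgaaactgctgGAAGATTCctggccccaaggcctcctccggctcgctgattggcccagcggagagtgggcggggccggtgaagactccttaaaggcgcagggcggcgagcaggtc
Hspa1b, chromosome 17, 34959239 to 34959388, minus strand: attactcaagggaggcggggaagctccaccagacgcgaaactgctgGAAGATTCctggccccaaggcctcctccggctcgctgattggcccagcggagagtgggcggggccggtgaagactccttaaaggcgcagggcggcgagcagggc
Hspe1, chromosome 1, 55087998 to 55088147, plus strand: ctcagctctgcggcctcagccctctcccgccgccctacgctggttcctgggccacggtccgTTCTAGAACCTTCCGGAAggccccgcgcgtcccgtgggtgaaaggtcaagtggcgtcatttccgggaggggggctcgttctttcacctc
Hsph1, chromosome 5, 149636337 to 149636486, minus strand: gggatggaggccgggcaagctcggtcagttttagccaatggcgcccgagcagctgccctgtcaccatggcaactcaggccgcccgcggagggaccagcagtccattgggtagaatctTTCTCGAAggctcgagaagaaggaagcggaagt
Hspa5, chromosome 2, 34771940 to 34772089, plus strand: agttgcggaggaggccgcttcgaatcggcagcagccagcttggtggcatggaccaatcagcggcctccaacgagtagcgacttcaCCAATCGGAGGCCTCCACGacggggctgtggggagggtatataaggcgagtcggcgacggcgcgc
Hsp90b1, chromosome 10, 86705445 to 86705594, minus strand: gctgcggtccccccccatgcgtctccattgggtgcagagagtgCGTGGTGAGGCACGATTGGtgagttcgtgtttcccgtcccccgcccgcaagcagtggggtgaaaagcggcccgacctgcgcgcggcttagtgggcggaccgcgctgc

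Values are RPKM, read counts scaled to gene length and to library size, as deposited. The read totals recovered from the values were 33174626 for the adenoma pool and 29548883 for the control pool. Fold changes are ratios of RPKM, each with a 95% interval that covers counting error only. The log2 fold change used for counts was log2((adenoma RPKM + 1)/(control RPKM + 1)). The added 1 RPKM shrinks differences between low values. A gene past 2-fold on that scale is called 2-fold higher or lower. Epithelial markers were present in both pools, with Epcam at 646 RPKM in the adenoma pool and 752 RPKM in the control pool. In pooled tissue RNA, fewer cells of a type and less RNA per cell cannot be told apart.

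As a family the chaperones differed little between the pools, with a few exceptions. Of the 94 genes, 80 reached 1 RPKM in either pool. Of these 80, 5 were at least 2-fold higher in the adenoma pool (6.25%), against a background of 14% of all 16517 genes past that filter and 10.4% of the 12910 mRNA genes. There were 8 at least 2-fold lower (10%), against 11% of all genes and 13.1% of mRNA genes. The median log2 fold change was -0.12 for the 80 chaperones and -0.17 for the mRNA genes. Rescaling the libraries to equal RPKM sums lowers the adenoma values by 0.40 on the log2 scale. With it, 0 chaperones were 2-fold higher and 12 lower, against 5.58% and 22.9% of mRNA genes. The chaperone median of -0.48 was again close to that of mRNA genes, -0.48. Without that rescaling, 56 of the 80 stood within 1.5-fold, with 11 above that range and 13 below it. For mRNA genes the shares outside the range were 19.5% above and 29.2% below.

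**Figure D1:**
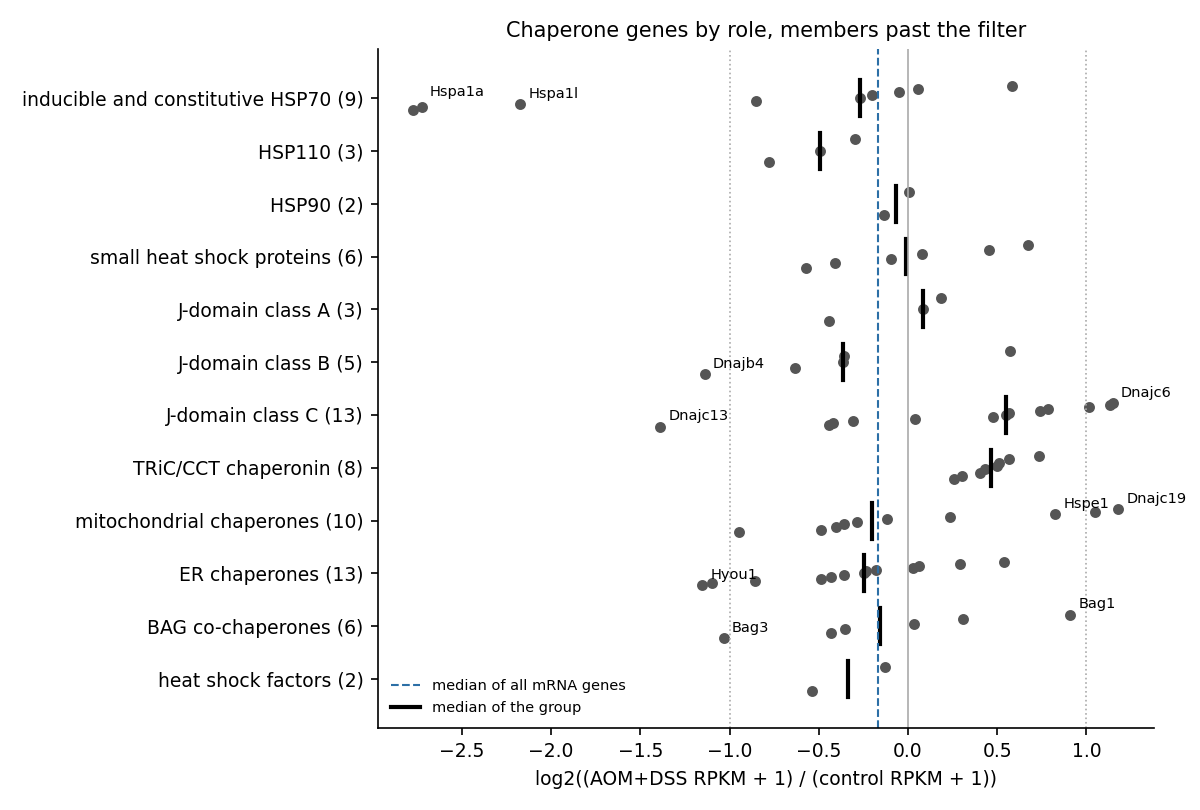
Log2 fold change (adenoma pool over control pool, pseudocount of 1 RPKM) of the 80 members past the filter, in rows by role with the number of members in brackets. Each point is a gene, the black bar is the median of its group, dotted lines mark 2-fold and the dashed line marks the median of all mRNA genes at -0.17; Hspa1a, Hspa1b (unlabelled, just left of it) and Hspa1l stand far to the left of all others, and the 8 CCT subunits lie together to the right of 0.

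The most abundant chaperone genes, Hsp90ab1 and Hspa8, had nearly the same level in both pools. The summed RPKM of the 94 genes was 4376 in the adenoma pool and 4273 in the control pool, and the 5 most abundant genes of each pool, which were not the same 5, gave 47.2% of it in the adenoma pool and 47.1% in the control pool. Hsp90ab1, the constitutive cytosolic HSP90, was the most abundant member in both, at 1023 RPKM in the adenoma pool and 1019 RPKM in the control pool, a ratio of 1.0 (0.994 to 1.01). Hspa8, the constitutive HSP70 known as HSC70, was next at 443 RPKM in the adenoma pool and 425 RPKM in the control pool, 1.04-fold higher (1.03 to 1.05). Bag1, a nucleotide exchange factor of HSP70, came next in the adenoma pool, while Hspa5, the ER HSP70 called BiP, came next in the control pool.

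On the log2 scale with the pseudocount, the stress-inducible HSP70 genes were the members that differed most. Hspa1a stood at 18.2 RPKM in the adenoma pool and 126 RPKM in the control pool, 6.92-fold lower (6.58 to 7.28). Hspa1b, its near-identical copy, stood at 17.6 RPKM in the adenoma pool and 126 RPKM in the control pool, 7.16-fold lower (6.80 to 7.55). Hspa1l, the remaining gene of this cluster and best known from testis, was at 1.69 RPKM in the adenoma pool and 11.1 RPKM in the control pool, 6.59-fold lower (5.52 to 7.98). On the scale with the pseudocount they were the only 3 members at least 4-fold apart in either direction, against 1.82% of mRNA genes 4-fold higher and 1.29% 4-fold lower. Set against Hspa8 within each library, which removes any scaling between libraries, the Hspa1a level was 4.11% of the Hspa8 level in the adenoma pool and 29.6% in the control pool.

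These 3 genes lie side by side on chromosome 17 of GRCm38, and each shares sequence with another gene. In GENCODE M21, Hspa1b runs from 34956436 to 34959238 and Hspa1a from 34969190 to 34972156, both on the minus strand, and Hspa1l from 34972703 to 34979285 on the plus strand, with 546 bases between the starts of Hspa1a and Hspa1l. Of the 50-base words of the Hspa1a transcript, 58.8% also occur in Hspa1b, and 71.4% of those of the Hspa1l transcript occur in another annotated gene, Gm10501. No length from 200 to 12000 bases turned the RPKM of any of the 3 into whole reads in both libraries, within 0.0005 of a read plus an allowance for rounding. The same was so for Hspa5 and Cct2, which share no words with other genes, whereas Hspa8, which does share words, gave a length. The whole-read check therefore cannot tell whether reads were split. Because of the shared words, the split of reads between Hspa1a and Hspa1b is uncertain, and their differences are not independent measurements. The Hspa1l value is uncertain with respect to Gm10501; all of its shared words were with that gene. The upstream windows of Hspa1a and Hspa1b printed above are the same at 149 of 150 bases, and each holds 1 heat shock element pair, which begins 104 bases before the start.

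The other HSP70 genes stood closer together. Hspa2, a paralog known from testis, was at 4.97 RPKM in the adenoma pool and 2.99 RPKM in the control pool. Hspa14, a ribosome-associated HSP70, was at 18.4 RPKM in the adenoma pool and 19.1 RPKM in the control pool, and Hspa13 at 5.44 RPKM in the adenoma pool and 6.40 RPKM in the control pool. Hspa12a, a distant relative, was low in both, at 0.736 RPKM in the adenoma pool and 2.14 RPKM in the control pool. Of the 9 genes of this group, 3 were 2-fold lower and 0 higher, against 13.1% and 10.4% of mRNA genes. The 3 are the copies on chromosome 17.

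**Figure D2:**
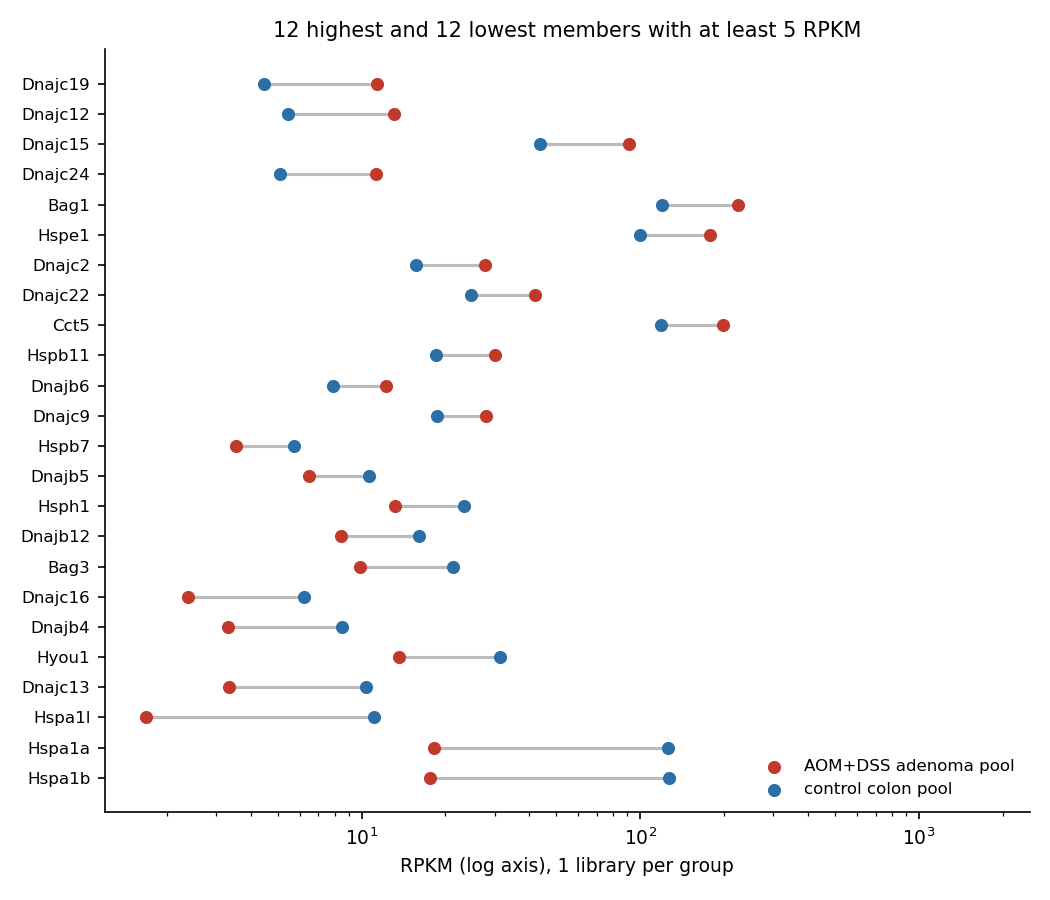
RPKM on a log axis in the adenoma pool (red) and the control pool (blue) for the 12 highest and the 12 lowest log2 fold changes among members with at least 5 RPKM in either pool, ordered from higher in the adenoma pool at the top to lower at the bottom. Grey lines join the 2 libraries of a gene; the gap is widest for Hspa1l, Hspa1a and Hspa1b, at 6.59-fold, 6.92-fold and 7.16-fold, while the 12 upper genes span 1.5-fold to 2.55-fold.

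Some co-chaperones of HSP70 were also lower, named here after their values were seen. Bag3, a co-chaperone induced with HSP70 that directs clients to autophagy, was at 9.90 RPKM in the adenoma pool and 21.3 RPKM in the control pool, 2.15-fold lower (1.98 to 2.34). Hsph1, an HSP110 exchange factor induced by heat, was at 13.1 RPKM in the adenoma pool and 23.2 RPKM in the control pool, 1.77-fold lower. Dnajb4, a cytosolic J-domain protein of class B, was at 3.31 RPKM in the adenoma pool and 8.49 RPKM in the control pool, 2.57-fold lower (2.32 to 2.84). Hspa4, the most abundant HSP110, was at 28.9 RPKM in the adenoma pool and 35.6 RPKM in the control pool. Bag3, Hsph1 and Dnajb4 all lay below the median of their groups, and only Bag3 and Dnajb4 were past 2-fold, Dnajb4 no longer so after adjustment for transcript length, at -0.80.

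Before adjustment for transcript length, other heat-inducible members differed little. Dnajb1, the canonical HSP40 partner of inducible HSP70 and the most abundant of class B, was at 46.2 RPKM in the adenoma pool and 59.9 RPKM in the control pool, 1.30-fold lower (1.25 to 1.35). Hsp90aa1, the inducible HSP90, was at 66.5 RPKM in the adenoma pool and 73.1 RPKM in the control pool, and Hspb1, the small heat shock protein known as HSP25 in mouse, was at 23.7 RPKM in the adenoma pool and 22.4 RPKM in the control pool. After adjustment for transcript length the log2 fold change was -0.85 for Hspb1, -0.38 for Dnajb1 and -0.11 for Hsp90aa1. Members known to be induced by heat therefore differed by unlike factors. Hsp90aa1, Hspa8 and Hspb1 share 58.5%, 52.7% and 51.6% of their 50-base words with other annotated genes, so their values too are uncertain.

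Heat shock factors were low and none was past 2-fold. Hsf1 was at 11.7 RPKM in the adenoma pool and 17.4 RPKM in the control pool, 1.49-fold lower (1.38 to 1.61). Hsf2 was at 2.35 RPKM in the adenoma pool and 2.66 RPKM in the control pool. The tissue-restricted Hsf4 stood at 0.659 RPKM in the adenoma pool and 0.720 RPKM in the control pool, Hsf5 at 0.0290 RPKM in the adenoma pool and 0.0163 RPKM in the control pool, and Hsf3 was listed at 0 in the adenoma pool and at 0.0343 RPKM in the control pool. Messenger RNA levels do not measure the activity of these factors, which is set after translation.

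Heat shock element pairs were present in the windows of both lower and other members. RefSeq promoter windows, from 250 bases before to 50 after each start, were matched for 75 of the 94 genes. The pair was in 25.3% of their windows, against 15.1% of all 32851 windows. Of 17 chaperones past the filter with a pair, 4 were 2-fold lower (Hspa1a, Hspa1b, Bag3 and Dnajb4) and 0 higher. The median of the 17 was -0.24. Of 46 without a pair, 3 were 2-fold lower and 4 higher, with a median of -0.09. Over all mRNA genes 13.1% were 2-fold lower and 10.4% higher. Hspa1a and Hspa1b are not independent measurements, and Dnajb4 was short of 2-fold after adjustment for transcript length, at -0.80. After adjustment for transcript length the medians were -0.45 with a pair and -0.09 without; the difference was not tested. The longer element, 3 alternating GAA and TTC units each 2 bases apart and so holding 2 overlapping pairs, was searched on both strands and found in 0.603% of all windows. It was in the windows of 4 members whose values did not share a direction: the log2 fold change was 0.83 for Hspe1, 0.57 for Dnajb6, -0.28 for Hspd1 and -0.78 for Hsph1. A match is a description of the letters in the window and not of binding. This grouping was made after the values were seen.

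BAG family genes went in both directions. Bag1 was at 225 RPKM in the adenoma pool and 119.6 RPKM in the control pool, 1.88-fold higher (1.82 to 1.95), the opposite direction to Bag3. After adjustment for transcript length the log2 fold change of Bag1 was 0.29, against 0.91 before it. The Bag3 level was thereby 4.40% of the Bag1 level in the adenoma pool and 17.8% in the control pool. Bag6, which guides tail-anchored proteins, was at 32.7 RPKM in the adenoma pool and 42.0 RPKM in the control pool, and Bag4, a silencer of death domains, at 2.27 RPKM in the adenoma pool and 3.41 RPKM in the control pool. Bag2, an inhibitor of the ubiquitin ligase CHIP, was at 6.41 RPKM in the adenoma pool and 5.0 RPKM in the control pool, and Bag5 at 13.5 RPKM in the adenoma pool and 13.1 RPKM in the control pool.

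Subunits of the TRiC/CCT chaperonin were higher together, each by less than 2-fold. All 8 subunit genes past the filter had more RPKM in the adenoma pool, and their median log2 fold change was 0.47. Among mRNA genes 5413 of 12910 had more RPKM in the adenoma pool, and the median was -0.17. Cct5 showed the largest difference, at 198 RPKM in the adenoma pool and 119 RPKM in the control pool, 1.67-fold higher (1.62 to 1.72). Cct2 was at 149.7 RPKM in the adenoma pool and 101 RPKM in the control pool, Cct6a at 131 RPKM in the adenoma pool and 92.0 RPKM in the control pool, and Cct4 at 115 RPKM in the adenoma pool and 80.7 RPKM in the control pool. The differences of these 3 were 1.48-fold, 1.42-fold and 1.43-fold.

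The remaining subunits differed least. Cct3 was at 108 RPKM in the adenoma pool and 79.8 RPKM in the control pool, and Tcp1, which encodes the first subunit, at 83.3 RPKM in the adenoma pool and 62.7 RPKM in the control pool. Cct8 was at 60.8 RPKM in the adenoma pool and 49.0 RPKM in the control pool. Cct7 was at 113 RPKM in the adenoma pool and 93.9 RPKM in the control pool, the smallest difference at 1.2-fold (1.17 to 1.23). The order of the levels was nearly the same in both pools, with Cct5 and Cct2 the most and Cct8 the least abundant. With equal RPKM sums 6 of the 8 were above 0 on the log2 scale, and after adjustment for transcript length 8 were. The testis-type copy Cct6b was at 0.102 RPKM in the adenoma pool and 0.134 RPKM in the control pool, and Cct8l1 was listed at 0 in both.

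**Figure D3:**
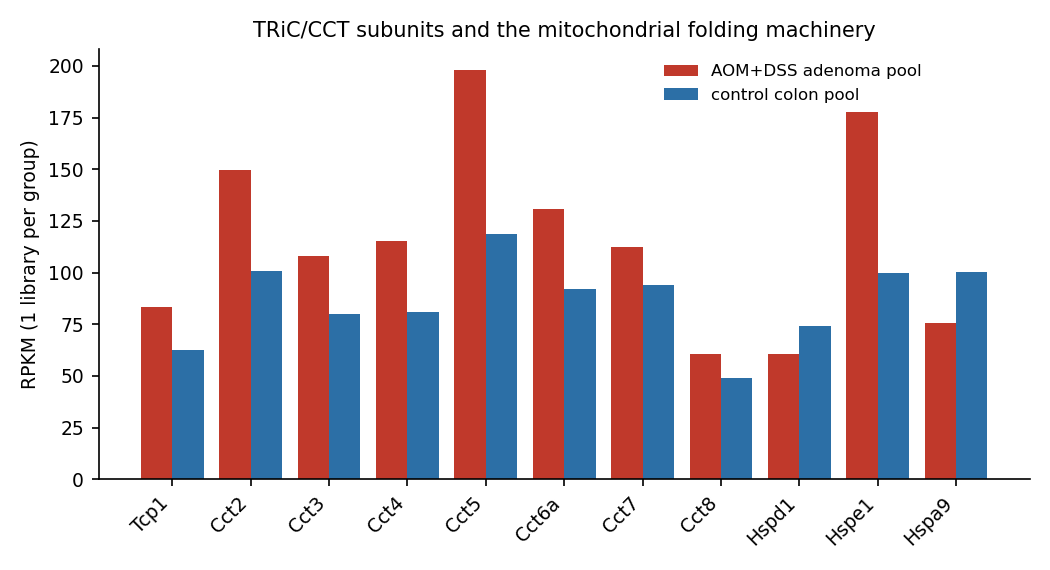
RPKM of the 8 TRiC/CCT subunits and of the mitochondrial chaperones Hspd1, Hspe1 and Hspa9 in the adenoma pool (red) and the control pool (blue), 1 library each and so without error bars. All 8 CCT subunits and Hspe1 are higher in the adenoma pool, and Hspd1 and Hspa9 are lower.

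Prefoldin, which hands newly made actin and tubulin to TRiC/CCT, was read from a separate list with prefoldin-like genes. Among its 9 genes past the filter 5 were 2-fold higher and 0 lower, against 10.4% and 13.1% of mRNA genes. The median on the log2 scale was 1.17. Pfdn5, the most abundant, was at 437 RPKM in the adenoma pool and 185 RPKM in the control pool, 2.36-fold higher. Uxt was at 6.58 RPKM in the adenoma pool and 1.56 RPKM in the control pool, and Pfdn4 at 3.94 RPKM in the adenoma pool and 0.768 RPKM in the control pool. These are short transcripts, with a median of 1299 bases. After adjustment for length the median was 0.42 and 0 of the 9 were past 2-fold. Among mRNA genes 6.13% were 2-fold higher and 10.4% lower after that adjustment.

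Mitochondrial chaperones did not move as one group. Hspe1, the lid of the mitochondrial chaperonin, was at 178 RPKM in the adenoma pool and 99.8 RPKM in the control pool, 1.78-fold higher (1.70 to 1.86). Hspd1, the barrel that the lid closes, was at 60.8 RPKM in the adenoma pool and 74.2 RPKM in the control pool, 1.22-fold lower (1.17 to 1.27). The ratio of Hspe1 to Hspd1 levels was 2.92 in the adenoma pool and 1.34 in the control pool. The genes lie head to head on chromosome 1 of GRCm38, Hspd1 from 55077835 to 55088243 on the minus strand and Hspe1 from 55088132 to 55091307 on the plus strand, so that their 5′ ends overlap by 112 bases. The Hspe1 window printed above therefore lies within the Hspd1 gene.

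The Hspd1 value is uncertain because the gene has near copies elsewhere. Of the 50-base words of the Hspd1 transcript 44.8% occur in other annotated genes, most of them in the pseudogene Hspd1-ps3. After adjustment for transcript length the log2 fold change of Hspe1 was -0.07 and that of Hspd1 -0.42. Hspa9, the mitochondrial HSP70 that pulls proteins through the inner membrane, was at 75.5 RPKM in the adenoma pool and 100.1 RPKM in the control pool, 1.33-fold lower (1.29 to 1.37).

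The J-domain proteins of the mitochondrial import motor were higher. Dnajc19 was at 11.4 RPKM in the adenoma pool and 4.48 RPKM in the control pool, 2.55-fold higher (2.20 to 2.96), and Dnajc15, its relative known as MCJ, was at 91.2 RPKM in the adenoma pool and 43.6 RPKM in the control pool, 2.09-fold higher (1.93 to 2.27). Dnaja3, a matrix J-domain partner of Hspa9, was at 14.9 RPKM in the adenoma pool and 21.3 RPKM in the control pool, and Dnajc28 at 0.895 RPKM in the adenoma pool and 2.65 RPKM in the control pool. Of the 10 mitochondrial members, 2 were 2-fold higher and 0 lower, against 10.4% and 13.1% of mRNA genes. In a separate list of mitochondrial proteases and cofactors, 0 of 12 were past 2-fold in either direction, with a median of -0.10. The extremes of that list were the protease subunit Clpp, at 53.1 RPKM in the adenoma pool and 29.1 RPKM in the control pool, and Afg3l2, at 30.2 RPKM in the adenoma pool and 49.0 RPKM in the control pool.

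The class C J-domain proteins outside these compartments, which differ widely in structure and task, held 3 of the 5 members that were 2-fold higher. Dnajc6, called auxilin, which uncoats clathrin vesicles, was at 1.72 RPKM in the adenoma pool and 0.227 RPKM in the control pool, 7.56-fold higher (5.31 to 11.1) from about 297 and 35 reads in those pools. Dnajc12, a partner of aromatic amino acid hydroxylases, was at 13.1 RPKM in the adenoma pool and 5.43 RPKM in the control pool, 2.41-fold higher (2.05 to 2.84). Dnajc24, an enzyme of diphthamide synthesis, was at 11.3 RPKM in the adenoma pool and 5.08 RPKM in the control pool, 2.22-fold higher (1.86 to 2.66). The ratio of Dnajc6 is the largest of the family in either direction, but the gene is low in both pools and on the scale with a pseudocount its log2 value is 1.15.

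Further class C genes were higher by less than 2-fold. Dnajc2, which acts on ribosomes, was at 27.8 RPKM in the adenoma pool and 15.7 RPKM in the control pool, and Dnajc22, a homolog of a Drosophila gene needed for endocytosis, at 41.9 RPKM in the adenoma pool and 24.6 RPKM in the control pool. Dnajc9, a histone chaperone, was at 28 RPKM in the adenoma pool and 18.6 RPKM in the control pool, and Dnajc8, a splicing factor and the most abundant of the group in the adenoma pool, at 51.3 RPKM in the adenoma pool and 34.8 RPKM in the control pool. The opposite extreme was Dnajc13, which works on endosomes and is called RME-8, at 3.35 RPKM in the adenoma pool and 10.4 RPKM in the control pool, 3.10-fold lower (2.87 to 3.35). Of the 13 genes in this group, 3 were 2-fold higher and 1 lower, against 10.4% and 13.1% of mRNA genes; the median was 0.55. After adjustment for transcript length 2 were higher and 0 lower and the median was 0.11, and with no filter on low values the unadjusted median was 0.29.

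Class A held no gene past 2-fold, and class B held 1, Dnajb4, which was lower. Dnaja2, the most abundant of class A, was at 58.3 RPKM in the adenoma pool and 51.1 RPKM in the control pool. Dnaja1 was at 3.43 RPKM in the adenoma pool and 3.18 RPKM in the control pool, and Dnaja4 at 3.15 RPKM in the adenoma pool and 4.64 RPKM in the control pool. In class B, Dnajb6, which suppresses aggregation, was at 12.2 RPKM in the adenoma pool and 7.90 RPKM in the control pool, and Dnajb5 was at 6.48 RPKM in the adenoma pool and 10.6 RPKM in the control pool. Dnajb6 was the 1 gene of 5 in class B with more RPKM in the adenoma pool.

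The share of ER chaperones that were 2-fold lower was near that of all mRNA genes. Of 13 members, 9 had less RPKM in the adenoma pool, as did 7497 of the 12910 mRNA genes. There were 2 at least 2-fold lower (15.4%, against 13.1% of mRNA genes) and 0 higher, with a median of -0.25. After adjustment for transcript length 0 were 2-fold lower and the median was -0.11, against -0.17 for mRNA genes. Hspa5 was at 168 RPKM in the adenoma pool and 236 RPKM in the control pool, 1.40-fold lower (1.38 to 1.43), and Hsp90b1, the ER HSP90 called GRP94, at 161 RPKM in the adenoma pool and 207 RPKM in the control pool, 1.29-fold lower (1.26 to 1.31). Hyou1, the HSP110 of the ER, was at 13.6 RPKM in the adenoma pool and 31.5 RPKM in the control pool, 2.31-fold lower (2.20 to 2.43). Dnajc16 was at 2.38 RPKM in the adenoma pool and 6.23 RPKM in the control pool, 2.62-fold lower (2.29 to 3.0), and the ER membrane protein Dnajb12 at 8.42 RPKM in the adenoma pool and 16.1 RPKM in the control pool, 1.91-fold lower.

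Members in which an ER stress element was found showed differences of less than 2-fold. The element was in the windows of 3 members, against 0.119% of all windows. Beside Hspa5 and Hsp90b1, printed above, this was Dnajc3, an inhibitor of the stress kinase PERK, at 18.1 RPKM in the adenoma pool and 21.7 RPKM in the control pool. Hyou1, which was 2-fold lower, had no matched promoter window and so was not searched for the element. In a separate list of unfolded protein response and ER folding genes, 4 of 23 were 2-fold lower (17.4%) and 0 higher. The shares of mRNA genes were 13.1% and 10.4%. The median was -0.17, as for mRNA genes. After adjustment for transcript length 4 were 2-fold lower, not all of them the same genes, against 10.4% of mRNA genes. The adjusted median was -0.35. The stress sensors Ern2 and Ern1, IRE1 proteins, were lowest: Ern2, the form of mucus-secreting epithelium, was at 7.94 RPKM in the adenoma pool and 24.2 RPKM in the control pool, and Ern1 at 2.36 RPKM in the adenoma pool and 7.73 RPKM in the control pool. The lectin chaperone Calr, the most abundant, was at 260 RPKM in the adenoma pool and 456 RPKM in the control pool. The stress-response factors Ddit3 and Atf4 differed less before adjustment. Ddit3 was at 12 RPKM in the adenoma pool and 14.1 RPKM in the control pool. Atf4 was at 53.6 RPKM in the adenoma pool and 57.6 RPKM in the control pool. The length-adjusted log2 fold change was -1.52 for Ern2, -1.11 for Ddit3, -1.04 for Calr, -0.82 for Ern1 and -0.40 for Atf4.

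Small heat shock proteins had 0 of 6 members past 2-fold in either direction, with a median log2 fold change of -0.01. After adjustment for transcript length 0 were past 2-fold and the median was -0.58, against -0.17 for mRNA genes. Hspb11, also called IFT25 and a part of the intraflagellar transport machinery, was the most abundant in the adenoma pool at 30.1 RPKM in the adenoma pool and 18.5 RPKM in the control pool, 1.63-fold higher (1.49 to 1.77). Hspb8, a partner of Bag3, was at 21 RPKM in the adenoma pool and 22.5 RPKM in the control pool. Hspb6 and Hspb7, which are abundant in muscle, were at 5.10 and 3.53 RPKM in the adenoma pool and 7.10 and 5.72 RPKM in the control pool. Of 10 smooth muscle markers 5 were 2-fold lower and 0 higher, against 13.1% and 10.4% of mRNA genes. After adjustment for transcript length 3 were 2-fold lower, against 10.4% of mRNA genes. The summed RPKM of the 10 was 1809 in the adenoma pool and 2220 in the control pool. The muscle myosin Myh11 was at 61.0 RPKM in the adenoma pool and 178 RPKM in the control pool. Tagln, the 1 marker with more RPKM in the adenoma pool, was at 597 RPKM there and 558 RPKM in the control pool. The part of smooth muscle in the Hspb6 and Hspb7 differences was not tested.

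Markers of other cell types also differed. For all the counts that follow, the shares of mRNA genes were 10.4% 2-fold higher and 13.1% lower. Leukocyte markers had 3 of 8 genes 2-fold higher and 0 lower, with a summed RPKM of 350 in the adenoma pool and 49.2 in the control pool. Most of that sum came from the neutrophil genes S100a9, at 175 RPKM in the adenoma pool and 0.693 RPKM in the control pool, and S100a8, at 120.5 RPKM in the adenoma pool and 0.777 RPKM in the control pool. The pan-leukocyte gene Ptprc was at 3.70 RPKM in the adenoma pool and 5.95 RPKM in the control pool, and Itgam at 2.53 RPKM in the adenoma pool and 4.69 RPKM in the control pool. Epithelial markers had 3 of 8 2-fold lower and 0 higher, with sums of 6288 in the adenoma pool and 9626 in the control pool. They ranged from Krt18, at 483 RPKM in the adenoma pool and 327 RPKM in the control pool, to Cdh1. Cdh1 was at 44.9 RPKM in the adenoma pool and 137 RPKM in the control pool. Endothelial markers had 1 of 5 2-fold lower, and the 6 fibroblast markers and the 4 of 7 enteric neuron and glia markers past the filter had 0 past 2-fold. Skeletal muscle markers had 2 of 6 past the filter and ciliated cell or sperm markers 1 of 6, with Tnp1 listed at 0 in both pools. After adjustment for transcript length 5 epithelial, 0 endothelial and 1 skeletal muscle markers were 2-fold lower, against 10.4% of mRNA genes. With that adjustment 3 leukocyte markers and 1 fibroblast marker were 2-fold higher, against 6.13% of mRNA genes. The part of cell mix in the chaperone differences was not tested.

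Before adjustment for transcript length, 1 of the co-chaperones that are not in the families above was past 2-fold on the scale with the pseudocount. Of 21 co-chaperones of HSP90 and HSP70, 1 was 2-fold lower and 0 higher, against 13.1% and 10.4% of mRNA genes. The median was -0.08. This gene was Fkbp5, an HSP90 co-chaperone of steroid receptors and a known glucocorticoid target, at 6.09 RPKM in the adenoma pool and 41.8 RPKM in the control pool, 6.87-fold lower, a difference as wide as that of Hspa1a. Sugt1, the highest, was at 42.2 RPKM in the adenoma pool and 20.8 RPKM in the control pool, and Fkbp4, the most abundant, at 243 RPKM in the adenoma pool and 208 RPKM in the control pool. After adjustment for transcript length 2 of the 21 were 2-fold higher and 1 lower, against 6.13% and 10.4% of mRNA genes. The adjusted log2 fold change was 1.56 for Sugt1, 1.03 for Cdc37 and -2.45 for Fkbp5. In a list of other stress genes, 1 of 8 was 2-fold lower and 0 higher: Txnip, an inhibitor of thioredoxin and the most abundant of the list in the control pool, at 53.8 RPKM in the adenoma pool and 212 RPKM in the control pool. Gadd45b, a growth arrest gene, was at 30.0 RPKM in the adenoma pool and 15.1 RPKM in the control pool. After adjustment for transcript length 2 of these 8 stress genes were 2-fold lower and 0 higher.

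Transcript length moved with the fold change in this family as in the libraries as a whole. Spearman's rho between the longest GENCODE transcript and log2 fold change was -0.42 across the 80 chaperones and -0.50 across 12733 mRNA genes, as a description across genes of the same libraries. The 27 shortest chaperones, up to 2499 bases, had a median of 0.45, and the 27 longest, from 3758 bases, a median of -0.31. With the running median over length subtracted, Hspa1a, Hspa1b and Hspa1l kept log2 fold changes of -2.75, -2.86 and -2.31 and Bag3 -1.15. Hyou1, Dnajb4, Dnajc13 and Dnajc16 were then short of 2-fold, at -0.81, -0.80, -0.80 and -0.63, and so was Dnajc24 at 0.31. In that adjusted comparison 4 chaperones were 2-fold higher and 4 lower, against 6.13% and 10.4% of mRNA genes.

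The adjusted values of some members depended on which length was used. The longest transcript of Dnajc15 is 6193 bases, whereas its RPKM gave whole reads in both libraries at 648 bases or a multiple of it, and for Dnajc12 the lengths were 3025 and 1289 bases. With the shorter of both lengths, a choice made after the values were seen, the adjusted log2 fold change was 0.08 for Dnajc15, 0.49 for Dnajc12 and 0.84 for Dnajc19. Dnajc6 kept 1.53 and was the 1 member still 2-fold higher. With these lengths 6 members were 2-fold lower, against 4 with the longest transcript, among them Dnajc30 at -1.15 and Hspb6 at -1.04.

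**Figure D4:**
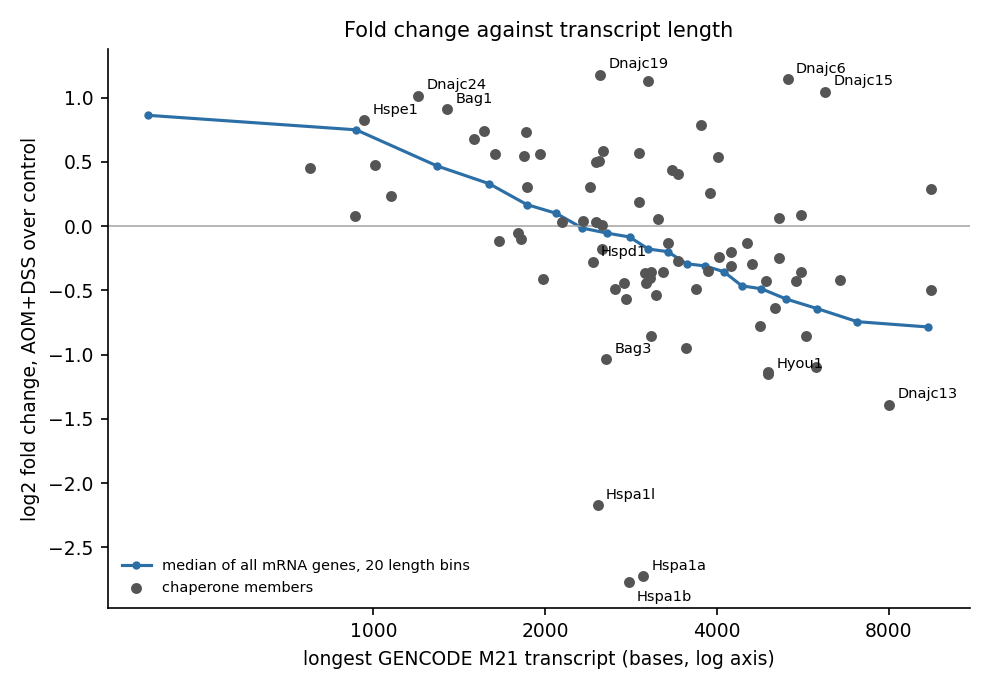
Log2 fold change (adenoma pool over control pool) against the length of the longest GENCODE M21 transcript on a log axis for the 80 members past the filter (grey), with the median of all mRNA genes in 20 bins of length (blue line). The blue line slopes downwards; Hspa1a, Hspa1b and Hspa1l lie more than 2 log2 units below it, and Dnajc6 and Dnajc15 lie above it.

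The 14 members below 1 RPKM in both pools were low or listed at 0. Dnajb8, Dnajc5g and Cct8l1 were listed at 0 in both pools. Hspb9 was listed at 0 in the adenoma pool and at 0.0466 RPKM in the control pool, and Hspb3 at 0.0772 RPKM in the adenoma pool and at 0 in the control pool. Dnajb13, a sperm and cilium protein, was at 0.132 RPKM in the adenoma pool and 0.415 RPKM in the control pool, and Dnajb3 at 0.682 RPKM in the adenoma pool and 0.133 RPKM in the control pool, from about 23 and 4 reads in those pools.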

How the data were processed

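The authors deposited 1 table of RPKM values with 1 column per library, per the file headers; each library pools RNA of 6 individuals. As build the submitters' processing notes give GRCh37, a human assembly, although the symbols are those of mouse; aligner, counting and annotation are not given in the sources used here. Per the labels, the sequencer is named both as Proton and as Illumina.

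The members, gene lists and tests were chosen with earlier results of these data known. Log2 fold changes used a pseudocount of 1 RPKM and genes with at least 1 RPKM in either library; 2-fold was the call. With 1 library per group no test was made. Read totals were recovered from short noncoding genes (microRNAs, snoRNAs) with RefSeq lengths: 72.0% of 200 genes in the adenoma pool and 70.9% of 182 in the control pool gave reads within 0.01 of a whole number. Reads per member used the longest GENCODE M21 transcript or, where shorter, the smallest length that gave whole reads in both libraries (found for 67 of 88 members above 0 in both). Exact (Clopper-Pearson) 95% intervals on these approximate reads cover counting error only. The length adjustment subtracted the running median over 20 bins of length among mRNA genes and added back their median. Named were the 12 highest and 12 lowest members with at least 5 RPKM, the most abundant of each role, all CCT, BAG and heat shock factor genes, and for other lists the 2 largest differences and the most abundant gene; others were chosen after their values were seen. Of the symbols in those lists 2 were not matched. Promoters are RefSeq's on GRCm38.p6, coordinates GENCODE's on GRCm38. The steps were tested on simulated data. Python 3.11.15, numpy 2.4.6, pandas 2.3.3 and scipy 1.17.1 were used.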

Additional observations from a re-analysis of the deposited data

How the results depend on the processing

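The count of 5 chaperones 2-fold higher and 8 lower became 0 and 3 with a pseudocount of 5 RPKM, against 5.97% and 4.83% of mRNA genes. At a 1.5-fold threshold the counts were 11 and 13, against 19.5% and 29.2% of mRNA genes. At a 4-fold threshold they were 0 and 3, against 1.82% and 1.29%. With the libraries rescaled to equal sums 0 were higher and 12 lower, against 5.58% and 22.9% of mRNA genes. The median log2 fold change was then -0.48, as for mRNA genes. Length adjustment left 4 lower, against 10.4% of mRNA genes. With the shorter lengths, chosen after the data were seen, 1 was higher and 6 lower, against 6.10% and 10.4% of mRNA genes. The other settings (a pseudocount of 0.1 RPKM, scaling by the median ratio or by a trimmed mean of log ratios, no filter, and a filter of 5 RPKM) gave 4 or 5 higher and 8 to 10 lower. Under these settings 6.01% to 13.0% of mRNA genes were higher and 7.56% to 20.4% lower. The cause was not tested in any of these cases. Among the 44 named members, 12 were past 2-fold and 0 of the 12 changed sign under any alternative, while 10 of those under 2-fold did under at least 1. No paired analysis was possible because each group holds 1 library. Read depth is not what limits the abundant members, whose intervals are narrow; the single library per group is.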
